A study of Arabidopsis thaliana with 12 samples.

Results

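AT5G52810 is the Arabidopsis thaliana gene known as SARD4, which encodes a reductase of the ornithine cyclodeaminase and mu-crystallin family. It was measured by 1 of the 3439 features of the array, feature 974, the only feature whose platform annotation gives this gene and no other. In all, 692 features carried a single gene, and 0 further features listed AT5G52810 among several. Levels are intensities in the authors' units, on a linear scale whose reference the labels do not name.

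The 12 samples, all of the ecotype Wassilevskija, fell into 2 groups of 6. In the first, wild type roots were kept for 48 h on MS medium, a standard plant salt medium, with 100 mM glucose. In the second, the mutant kn09 was kept for 48 h on MS medium with 100 mM proline; the labels call kn09 hypersensitive to proline and blocked in breaking proline down in the mitochondrion, and do not name the mutated gene. The groups differ in genotype and also in what was added to the medium, so the effects of the mutation, of proline and of glucose cannot be told apart. Nothing in the labels states that the samples are from separate plants or cultures, so the p-values cover the spread of these samples alone, which may be technical. In RNA from whole tissue, fewer cells of a type and less RNA per cell cannot be told apart.

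SARD4 acts in the synthesis of pipecolic acid, a cyclic amino acid made from lysine. The aminotransferase ALD1 takes the amino group from lysine, the product closes to the ring compound dehydropipecolic acid, and SARD4 reduces that ring to pipecolic acid. FMO1 then hydroxylates pipecolic acid to N-hydroxypipecolic acid, a signal of systemic acquired resistance, the state in which leaves far from an infection become more resistant. Pipecolic acid has a ring with one carbon more than that of proline, and plant proline itself is made by a different reductase, P5CR.

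The transcript of AT5G52810 was higher in kn09 on proline than in wild type on glucose. In wild type, samples 1 to 6 had intensities of 2.03, 1.52, 1.08, 0.943, 0.885 and 1.84. In kn09, samples 1 to 6 had intensities of 3.45, 2.98, 2.19, 2.13, 4.13 and 3.71. Every kn09 sample lay above every wild type sample, but the groups nearly met: the lowest kn09 value, in sample 4, was 1.05 times the highest wild type value, in sample 1. The wild type mean was 1.38 ± 0.486 and the kn09 mean 3.10 ± 0.816 (SD, n = 6 each), a ratio of 2.24. Of the 3439 features, 9.28% had kn09 intensities all above the wild type ones, and 18.0% had groups that did not overlap in either direction, so a separation of this kind was common on the array.

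**Figure D1:**
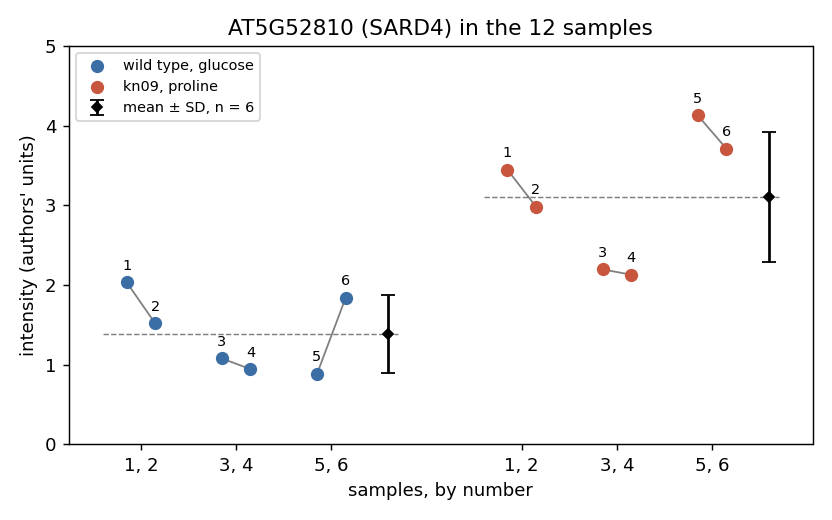
Intensity of AT5G52810 in the authors' units (vertical axis) in each of the 12 samples; numbers are the sample numbers, grey lines join samples 1 and 2, 3 and 4, and 5 and 6 of a group, and diamonds with bars are the mean ± SD of 6 samples (dashed line at the mean). The wild type points run from 0.885 to 2.03 and the kn09 points from 2.13 to 4.13.

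On the log2 scale after quantile normalization, the difference between kn09 and wild type was 1.12 ± 0.29 (SE), with a 95% interval from 0.49 to 1.74. This corresponds to a 2.17-fold difference, with an interval from 1.40-fold to 3.35-fold. The transcript rose, with an adjusted p of 0.0128 in limma, where p-values were adjusted by the Benjamini-Hochberg method over all 3439 features and called under 0.05. At that threshold 27.7% of all features were called and 14.1% were called higher in kn09, so the call of AT5G52810 is 1 of many. On this normalized scale the groups overlapped slightly, since wild type sample 1, at 1.15, stood above kn09 sample 4, at 1.06, and kn09 sample 3, at 1.08. A two-sided exact permutation test over the samples gave p = 0.00649, where 0.00216 is the smallest value that 6 against 6 allows.

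The feature was at 0 in none of the 12 samples. Its place within each sample, by deposited intensity, gives a scale that does not depend on the quantile normalization used here. The authors' own background correction and normalization, which are unknown, can still affect it. Since different probes are not comparable in level, that place says nothing of how abundant the transcript is beside others. In wild type, 84.4% to 92.9% of the features of a sample had a lower intensity than AT5G52810, and in kn09 92.5% to 95.7% did. The mean of these percentiles was 88.5 ± 3.59 for wild type and 94.2 ± 1.33 for kn09 (SD, n = 6 each), with p = 0.00649 in the exact permutation test. The ranges overlapped, because wild type sample 1 had a higher percentile than kn09 samples 3 and 4. Relative to the median feature of its sample, the intensity was 4.26 to 13.1 times as high in wild type and 12.2 to 21.4 times as high in kn09. Wild type sample 6 was the highest of its group on that scale and lay above kn09 samples 3 and 4.

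Some measures of the whole samples also moved with the groups. Between 175 and 265 features stood at 0 in a wild type sample and between 317 and 475 in a kn09 sample. The median intensity did not separate the groups: it ran from 0.137 to 0.224 in wild type and, within that range, from 0.164 to 0.196 in kn09. Of 15 transcripts of green tissue, 4 had a single-gene feature: LHB1B2, an antenna protein of photosystem II, PSAN, a subunit of photosystem I, and the Calvin cycle enzymes PRK and SBPASE. Their summed intensity was 32.5 to 51.5 in wild type and 5.81 to 8.94 in kn09. Most of that sum was LHB1B2, with means of 35.3 in wild type and 5.88 in kn09, where the sum averaged 44.6 and 7.80. Of the 4, 3 fell and SBPASE did not pass, where 13.6% of all features were called lower. The log2 difference of SBPASE was -2.08 ± 0.96 (SE), with 2 kn09 values at 0. That of PRK, which fell, was -2.06 ± 0.27 (SE), so SBPASE differed in precision more than in size. The 4 do not stand for all genes of photosynthesis. AT3G47650, a chaperone of Rubisco assembly outside the list, was higher in kn09, with a log2 difference of 1.44. It is named because its profile was among the 5 closest to that of AT5G52810, a choice that itself favours a rise. None of the 4 was at 0 in all samples of a group. The part of these shifts in the difference of AT5G52810 was not tested. Of 16 root transcripts, 0 had a single-gene feature, so root markers could not be checked. The green tissue transcripts gave signal in samples whose labels name treated roots: in wild type LHB1B2 had an intensity of 35.3 ± 5.65 and PSAN of 7.65 ± 1.68 (SD, n = 6 each). The labels name roots as what was treated, and do not state which organ gave the RNA.

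Within each group the samples resembled each other in the pairs 1 and 2, 3 and 4, and 5 and 6. Over the brighter 50% of features, all 12 samples had their highest rank correlation within the group with the partner of such a pair; over all features 8 of 12 did. In kn09, AT5G52810 differed less within the pairs than between them. The 2 members of a kn09 pair differed by 1.03-fold to 1.16-fold, while the pair means of 3.21, 2.16 and 3.92 differed by up to 1.81-fold. In wild type the pair means were 1.77, 1.01 and 1.36, and samples 5 and 6 differed from each other by 2.08-fold, more than the 1.76-fold between the highest and the lowest pair mean. On the normalized log2 scale that step was 0.92; between the same samples 21.1% of all features and 4.59% of the brighter 50% differed more. Samples 1 and 2 of wild type differed by 1.34-fold, and 33.3% of all features and 12.1% of the brighter ones differed more. Within the kn09 pairs, the share of brighter features that differed more than AT5G52810 was 49.8% for samples 1 and 2, 95.5% for samples 3 and 4 and 42.8% for samples 5 and 6, so that its agreement was near that of a typical feature in the first and last of these pairs.

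The call of AT5G52810 depended on how the pairs were treated. With each pair averaged, leaving 3 values against 3, the log2 difference of 1.12 had a 95% interval from 0.12 to 2.11 and an adjusted p of 0.145 in limma, and did not pass. All 3 kn09 pair means lay above all 3 wild type pair means, the lowest kn09 one by 1.22-fold, and the exact permutation p was 0.1, the smallest that 3 against 3 allows. With the pairs as a random block, for which the fit across all features estimated a correlation of 0.447, the adjusted p in limma was 0.0432. Leaving out a whole pair ended the call in 3 of 6 cases. The log2 difference was 0.88 without wild type samples 3 and 4, with an adjusted p of 0.0653 in limma, and 1.38 without wild type samples 1 and 2, with an adjusted p of 0.00395.

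**Figure D2:**
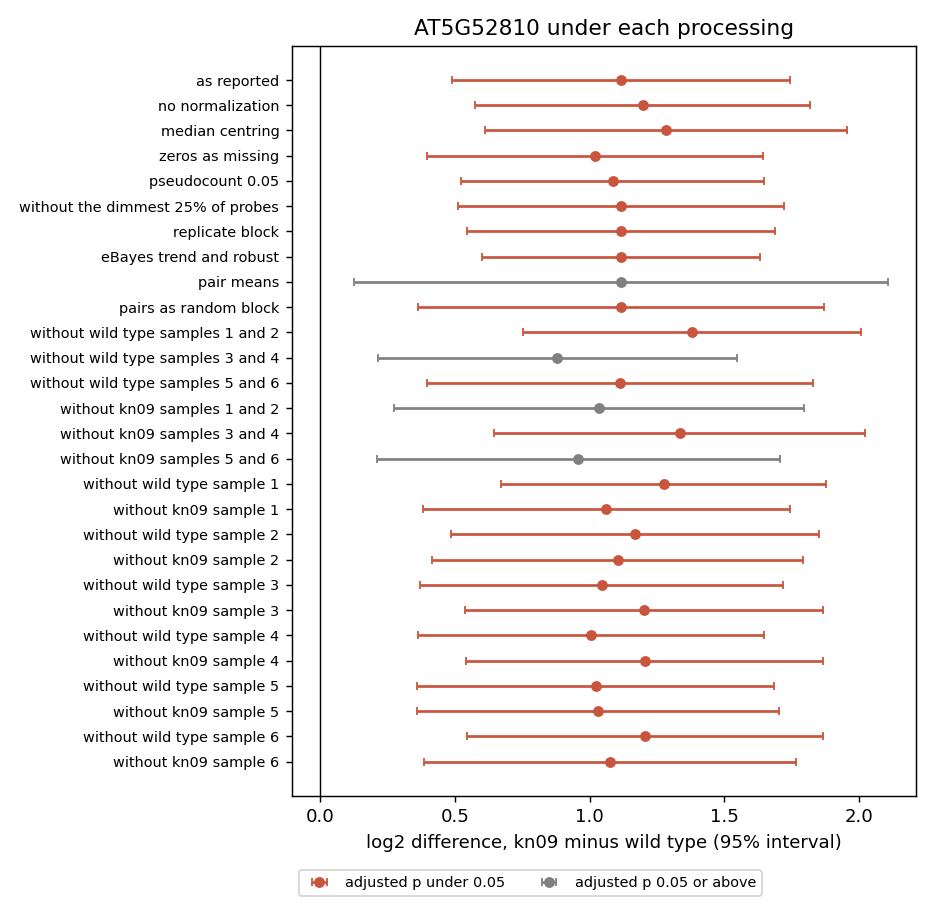
Log2 difference of AT5G52810, kn09 minus wild type (horizontal axis), with its 95% interval, under the reported processing and 27 alternatives; red points have an adjusted p under 0.05 and grey points do not. The differences run from 0.88 to 1.38, and the 4 grey points are the pair means and the fits without wild type samples 3 and 4, kn09 samples 1 and 2, or kn09 samples 5 and 6.

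Among the 692 single-gene features, 90 were higher in kn09 at the same threshold and 89 were lower. By size of the log2 difference AT5G52810 stood at place 70 of these 90, whose median was 1.52. Over all single-gene features, called or not, 38.6% had a larger absolute difference than AT5G52810, and the median difference was -0.03.

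**Figure D3:**
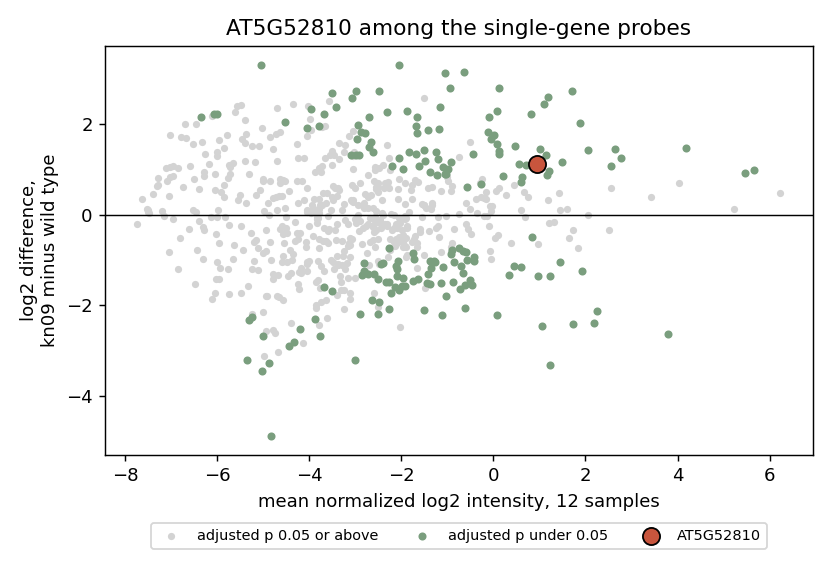
Log2 difference, kn09 minus wild type (vertical axis), against the mean normalized log2 intensity over the 12 samples (horizontal axis) for the 692 single-gene features; green points passed an adjusted p of 0.05 and grey points did not. AT5G52810 (red) lies at a difference of 1.12, in the lower part of the called increases.

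The genes listed as working with SARD4 had no feature of their own. The list of the pipecolate pathway and of systemic acquired resistance held 23 genes, ALD1, FMO1, the regulators SARD1 and CBP60g and the resistance marker PR1 among them, and 0 were measured by a single-gene feature. The same held for 12 genes of lysine metabolism, among them LKR/SDH, the first enzyme of lysine breakdown, and for 17 genes of proline and ornithine metabolism, among them P5CS1 of proline synthesis and the proline dehydrogenases PDH1 and PDH2. These 3 lists do not hold every gene of the pathways. A lysine synthesis gene outside them, named after its values were seen, is AT3G53580, the diaminopimelate epimerase, which had a single-gene feature. Its intensity was 0.117 ± 0.0636 for wild type and 0.0784 ± 0.0577 for kn09 (SD, n = 6 each), and its log2 difference was 0.13 ± 0.93 (SE), with an adjusted p in limma of 0.932. The mean intensity and the log2 difference have opposite signs, and 1 wild type sample stood at 0.00489. Other pathway genes outside the lists are not described, and AT3G53580 does not stand for them. Features that carry several genes were not searched for the listed genes, so no values of these genes are given beside the rise of AT5G52810.

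Lists were also drawn by words in the gene names. Of 7 features whose gene names contain dehydrogenase, reductase or oxidoreductase, 0 rose, 1 fell and 6 did not pass, where 14.1% of all features were called higher and 13.6% lower, so a count of this size is near that background. Their median log2 difference was 0.35, against -0.03 over all features. AT5G52810, itself a reductase, carries none of these words in the gene table and is not among the 7. The match by name thus misses enzymes of this kind, and the counts describe these 7 alone. The gene that fell was GLDH (AT3G47930), which completes ascorbate synthesis in mitochondria. Its intensity averaged 0.449 ± 0.181 in the wild type samples and 0.133 ± 0.0723 in the kn09 samples (SD, n = 6 each). Its log2 difference was -1.58 ± 0.41 (SE), and limma gave an adjusted p of 0.0133. Of the names with an amino acid in them there were 2, a glutamate receptor and a serine-rich protein, which are no enzymes of amino acid metabolism; 0 of the 2 passed, against 27.7% of all features. Words for defence found 0 features. Only symbols and synonyms were searched, so this does not show that no defence gene was measured.

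The genes whose profile over the 12 samples was closest to that of AT5G52810 were found by distance. Each of the 415 other single-gene features without a value at 0 was centred on its own mean of normalized log2 values, and its root mean square difference from AT5G52810 was taken over the 12 samples. The median distance was 1.005. The 5 closest were AT2G37750 at a distance of 0.29, XERICO (AT2G04240) at 0.29, AT4G05070 at 0.32, AT5G63290 at 0.34 and AT3G47650 at 0.35. XERICO is a RING-type protein that raises abscisic acid levels, and AT3G47650, known as BSD2, is a chaperone of Rubisco assembly.

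Their own levels rose by amounts like that of AT5G52810, which the choice by distance itself brings about. XERICO ran from 2.90 to 5.10 in wild type, with a median of 4.56, and from 7.94 to 14.0 in kn09, with a median of 11.0. AT2G37750 ran from 0.151 to 0.387 in wild type and from 0.273 to 0.634 in kn09, and was the only one of the 5 whose groups overlapped in intensity. Of the 415 features compared, 57 had kn09 intensities all above the wild type ones, as had 9.28% of all features. Closeness to AT5G52810, whose own intensities were separated, favours such a separation. The log2 differences of the 5 lay between 1.08 and 1.44. In kn09, samples 3 and 4 were the 2 lowest for AT5G52810 and for all 5 of these genes, which the choice by distance over the same values favours. In wild type sample 6, in contrast, AT5G52810 stood higher relative to its own mean than any of the 5.

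**Figure D4:**
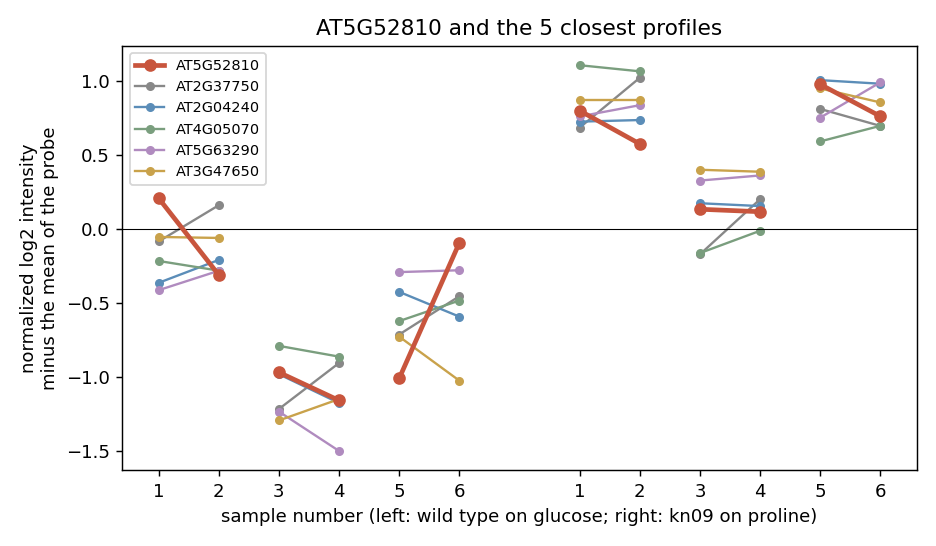
Normalized log2 intensity minus the mean of the feature over the 12 samples (vertical axis) for AT5G52810 (thick red) and the 5 closest single-gene features; lines join the members of a sample pair, with wild type on the left and kn09 on the right. In kn09, samples 3 and 4 are the lowest for all 6 genes, and in wild type AT5G52810 changes between samples 5 and 6 by 0.92.

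The measured genes next to AT5G52810 on chromosome 5 did not pass, where 27.7% of all features did. On the side before it, the nearest single-gene feature was that of AT5G52660, known as RVE6, a MYB-like factor of the circadian clock, with 16 loci between. Its values were dim, from 0 to 0.0707 in wild type and from 0 to 0.111 in kn09, and its adjusted p was 0.243 in limma. On the side after it, with 20 loci between, AT5G52960 averaged 0.391 ± 0.0597 over the wild type samples and 0.581 ± 0.205 over the kn09 samples (SD, n = 6 each). Its log2 difference was 0.52 ± 0.29 (SE), and limma gave an adjusted p of 0.211.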

How the data were processed

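The table held 1 value for each of 3439 features and 12 samples. The deposited intensities are linear, run from 0 to about 100 and were scaled by the authors in a way the labels do not state. How they were scanned, background-corrected, normalized and filtered is not given in the sources used here. Whether they were centred is also unknown. Column medians ran from 0.137 to 0.224. Groups and sample numbers came from the sample titles. Gene names came from GEO's platform annotation, matched through the Entrez identifier to RefSeq's TAIR10.1 table; 690 of 692 single-gene features matched. No coordinates are printed because the files name no build, and no sequence was used here.

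Each zero took the 1st percentile of the positive values in its sample, log2 was taken and samples were quantile normalized. A two-sided test of group, with no other term, was made with lmFit and eBayes of limma 3.58.1 (R 4.3.3). The fit was tested on simulated data in which all samples were independent. That check does not cover samples that resemble each other in pairs. Means and SDs are of deposited intensities. Named genes were AT5G52810, listed genes with a single-gene feature, the 5 closest profiles, the nearest measured locus on each side, and up to 3 called members of each list drawn by words. The lists drawn by words used symbols and synonyms, because the gene table holds no descriptions. The gene, lists and tests were chosen with earlier results of these data known. Alternatives changed normalization, zeros, the filter, the variance model, blocks, pairs and samples; leaving out further pairs was chosen after seeing the data. The number of arrays limits the precision.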

Additional observations from a re-analysis of the deposited data

Results flagged for a closer look

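In 28 sets of 6 values, those of the 14 genes named here in either group, 1 held a sample far from the others, and chance flags about 1 in 20. AT3G53580, the diaminopimelate epimerase, had an intensity of 0.191 in kn09 sample 1, above 0.0320 to 0.0755 in the other kn09 samples.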

How the results depend on the processing

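The log2 difference of AT5G52810 was positive under all 27 alternatives and kept its call in 23. The call ended on the pair means (1.12, adjusted p 0.145 in limma), without wild type samples 3 and 4 (0.88, 0.0653), without kn09 samples 1 and 2 (1.03, 0.0539) and without kn09 samples 5 and 6 (0.96, 0.0715); the last 3 were chosen after seeing the data, and these fits use fewer values. Leaving out each of the 12 samples gave differences from 1.005 to 1.27, with adjusted p from 0.00565 to 0.0316, and 789 to 1010 called features. In each of these fits the pair partner of the sample left out stayed in. With no normalization, median centring, zeros as missing and a pseudocount of 0.05 the difference was 1.196, 1.28, 1.02 and 1.08. The exact permutation test passed in 17 of 18 alternatives, with a difference from 1.005 to 1.27 when 1 sample was left out; on the pair means (1.12) it could not go below p = 0.1. The 951 called features became 202 on the pair means, 80 higher and 122 lower, and 620 with the pairs as a random block, 343 higher and 277 lower. The split of higher to lower was 442 to 526 with no normalization and 430 to 560 when zeros were missing. Same-numbered samples of the 2 groups had correlations of their deviations from 0.0226 to 0.0937, none over 0.1, although 11 of 12 samples correlated best with their own number; with the replicate block the log2 difference of AT5G52810 was 1.12, the adjusted p 0.0191, and 815 features were called. Unknown background correction limits how the intensities translate into RNA.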
